A study of Mus musculus with 31 samples.

Results

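The comparison set cerebral cortex of newborn mice (P0) against the E13.5 embryo, in hybrids of the strains C57BL/6 (B6) and JF1, an inbred strain of Japanese wild-mouse origin. It comprised 13 of the 31 RNA-seq libraries of the series, chosen by the stage and cross given in their labels. At each stage the labels give a BJ1 cross (C57BL/6 x JF1) and its reciprocal, JB6 (JF1 x C57BL/6), with the mother's strain named first as in the labels' protocol. There were 3 E13.5 BJ1, 3 E13.5 JB6, 4 P0 BJ1 and 3 P0 JB6 libraries. The labels name no treatment, and every animal carried 1 genome of each strain. E13.5 BJ1 replicate 1 and P0 BJ1 replicate 2 were labelled male and the other 11 female. The E13.5 tissue is labelled DT and the P0 tissue Ctx, so age and dissection cannot be told apart. The labels do not say whether replicates were single animals or pools, so p-values measure the spread between these libraries, which may be technical. Each table gives, for every gene, the number of sense read bases at strain differences that came from the maternal and from the paternal allele. Their sum was used as the level of the gene, and the maternal part of the sum as its maternal share.

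At E13.5 the mouse cortical wall consists mostly of dividing radial glia and intermediate progenitors, which have begun to make the neurons of the deep layers. By birth neurogenesis has largely ended, the upper-layer neurons are settling, interneurons have migrated in from the ventral forebrain, and astrocytes and oligodendrocyte precursors are being made. Imprinted genes are read only or mostly from 1 parental allele, in most cases because of DNA methylation set in the germ line. In brain the use of the alleles changes for several of them as cells become neurons.

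Libraries held 5568220 to 7815580 read bases. The mitochondrial share ranged from 17.1% to 20.3% at E13.5 and from 12.9% to 20.1% at P0, a difference that missed the threshold (exact two-sided permutation test over all ways to choose 6 of 13 libraries, p = 0.136). By the same test more genes were detected at P0, 13704 to 14105 against 12899 to 13689 (exact permutation p = 5.83e-04), and the B6 share of all autosomal read bases was lower, 51.6% to 51.8% against 51.7% to 52.1% (exact permutation p = 0.00291). Of the 7 genes taken to define the cortex, all were read in both tables: the neuronal factor Neurod6 had 116, 196 and 248 CPM at E13.5 and 126, 177 and 204 CPM at P0 (lowest, median and highest library; CPM, autosomal read bases scaled to 1000000 per library), and the ranges of the stages overlapped. Emx1 and Lhx2, cortical factors that progenitors express, fell, from medians of 54.9 to 16.99 CPM (-1.69 ± 0.09 on the log2 scale) and 234 to 76.5 CPM (-1.67 ± 0.10). E13.5 BJ1 replicate 2 stood apart in markers of tissue around the cortex, with 4.32 CPM of the collagen Col3a1 against 113 to 607 CPM in the other E13.5 libraries. P0 JB6 replicate 3 was the most extreme P0 library for many neuronal and astrocyte genes, for example 465 CPM of the vesicular glutamate transporter Slc17a7, where the P0 median was 284.

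Most measured genes differed in level between the stages. Of 10483 autosomal genes averaging 20 or more read bases over the libraries, 4312 rose from E13.5 to P0 (41.1% of those tested) and 4226 fell (40.3%) at an adjusted p of 0.05 in edgeR's quasi-likelihood test with the cross as a covariate. A difference of at least 2-fold was found for 2341 rising genes (22.3%) and 1703 falling genes (16.2%). The 6 E13.5 and 7 P0 libraries did not overlap for 6644 genes (63.4%). The median log2 difference over all genes was 0.01. The scaling between libraries (TMM) takes most genes as unchanged, so this median and the balance of rises and falls are largely set by it. Without P0 JB6 replicate 3 and E13.5 BJ1 replicate 2 the counts were 4202 rising and 4152 falling. Among the list counts below, leaving out both gave 19 falling radial glia genes, 3 rising Cajal-Retzius and subplate genes, 1 falling upper-layer gene, 0 falling GABA receptor and chloride transporter genes and 17 rising axon genes. It also gave 13 falling glycolysis genes, 10 rising hormone response genes, 2 falling immediate early genes, 6 rising microglial genes, 7 rising and 3 falling endothelial and pericyte genes, and 4 falling meningeal genes. Of the imprinted genes it gave 14 rising and 16 falling maternally expressed and 13 rising paternally expressed ones, and the other list counts given below were the same. Because a large share of all genes passed, the counts of the gene groups below are read against these percentages, as a description with no test of the group. In bulk tissue fewer cells of a type and less RNA per cell cannot be told apart.

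**Figure D1:**
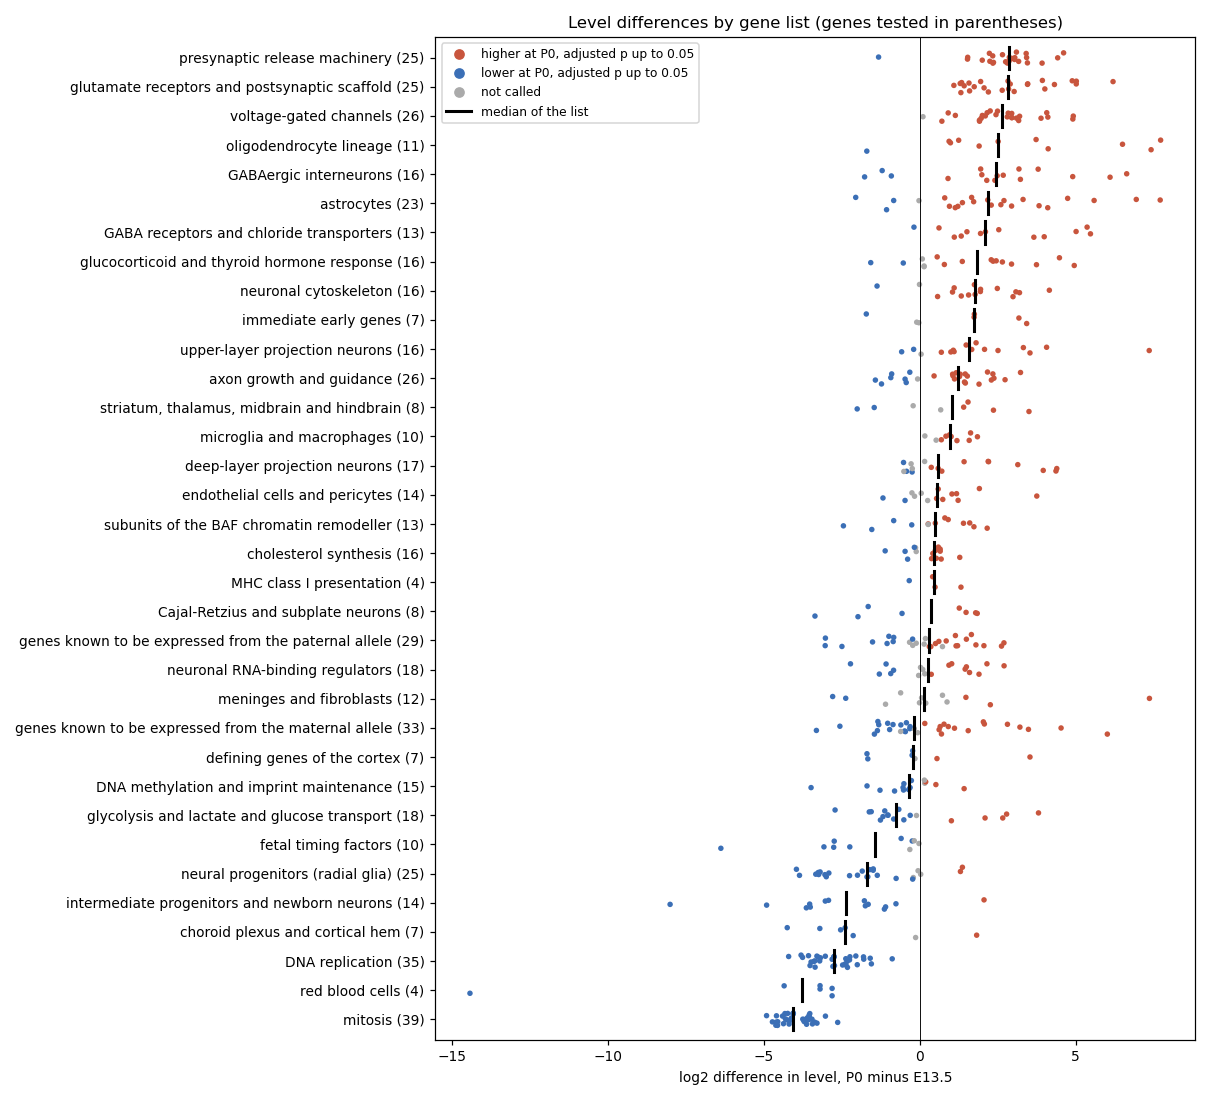
Log2 difference in level (P0 minus E13.5, horizontal axis) of every tested gene of 34 gene lists, 1 point per gene, coloured by the edgeR call at an adjusted p of 0.05, with the median of each list as a black line. The mitosis and DNA replication lists lie wholly to the left, with medians of -4.06 and -2.75, and the presynaptic and glutamate receptor lists almost wholly to the right, with medians of 2.87 and 2.83.

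Genes of neural progenitors fell. Of the 25 tested radial glia genes 20 fell and 2 rose, with a median log2 difference of -1.69. Pax6, a transcription factor of dorsal progenitors, had 87.3, 110.1 and 115 CPM at E13.5 and 10.4, 10.9 and 12.7 CPM at P0. Every E13.5 library lay above every P0 library (log2 difference -3.24 ± 0.09, edgeR adjusted p = 7.30e-16). The intermediate filament gene Nes went from a median of 525.6 to 115 CPM (-2.25 ± 0.06 on the log2 scale, ± SE here and below), and Gli3, a transcription factor of the Hedgehog pathway, from 208 to 24.1 CPM (-3.33 ± 0.12). Sox2, a factor that keeps progenitors undifferentiated, fell less, by 1.49 on the log2 scale. The radial glia genes did not move as a block. The glutamate transporter Slc1a3 and the receptor phosphatase Ptprz1, which astrocytes and oligodendrocyte precursors also express, rose, with log2 differences of 1.37 ± 0.11 and 1.30 ± 0.08. The lipid-binding protein gene Fabp7 had 272, 388 and 528 CPM at E13.5 and 252, 324 and 501 CPM at P0, with overlapping ranges (log2 difference -0.21 ± 0.18, edgeR adjusted p = 0.294).

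Among the 14 tested genes of intermediate progenitors and newborn neurons 13 fell and 1 rose (median -2.35). Eomes, the factor that marks intermediate progenitors, had 196, 253 and 299.9 CPM at E13.5 and 10.95, 25.7 and 32.2 CPM at P0. The stages did not overlap, and at P0 the 3 JB6 libraries, at 10.95 to 18.6 CPM, lay below the 4 BJ1 libraries, at 25.7 to 32.2 CPM (log2 difference -3.51 ± 0.11, edgeR adjusted p = 7.12e-15). The proneural factor Neurog2 went from a median of 181 to 6.35 CPM (-4.91 ± 0.13) and the stress-response gene Gadd45g from 121 to 12.0 CPM (-3.64 ± 0.15). The exception was Cdk5r1, the activator of the neuronal kinase Cdk5, which rose from 70.8 to 281 CPM (2.06 ± 0.11).

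The tested genes of DNA replication and mitosis fell without exception. All 35 tested DNA replication genes fell, 34 of them at least 2-fold, and all 39 tested mitosis genes fell at least 2-fold. For each of these genes the stages did not overlap. The median log2 difference was -2.75 for replication and -4.06 for mitosis. Mcm6, a subunit of the replicative helicase, had 155, 176 and 232 CPM at E13.5 and 23.6, 27.5 and 31.9 CPM at P0 (log2 difference -2.75 ± 0.09, edgeR adjusted p = 1.16e-14). Cdc6, which loads that helicase, went from a median of 79.7 to 4.28 CPM (-4.20 ± 0.13), and the polymerase clamp gene Pcna from 763 to 139 CPM (-2.47 ± 0.08). Top2a, the topoisomerase that untangles chromosomes, had 1177, 1242 and 1510.0 CPM at E13.5 and 54.4, 78.1 and 93.6 CPM at P0 (log2 difference -4.13 ± 0.12, edgeR adjusted p = 1.06e-14). Of the mitosis genes the kinesin Cenpe, which moves chromosomes to the spindle equator, fell by 4.91 on the log2 scale and the proliferation marker Mki67 by 4.56. The fall did not bring these genes to 0: the lowest P0 library still had 54.4 CPM of Top2a and 27.7 CPM of the mitotic kinase gene Cdk1. The counts of both lists were the same without P0 JB6 replicate 3 and E13.5 BJ1 replicate 2.

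Replication genes are classical targets of E2F factors, and many mitosis genes carry CCAAT boxes, the site of NF-Y, so the promoters of both lists were read. RefSeq promoters of the GRCm38.p6 build, 250 bases before to 50 bases after the first annotated start, were matched by gene ID for 29 of 35 replication and 34 of 39 mitosis genes. The E2F letters searched were TTTCCCGC, TTTCGCGC, TTTGCCGC and TTTGGCGC, and for the CCAAT box CCAAT, each on both strands, where overlapping matches count separately. An E2F match stood in 10 of 29 replication promoters (34.5%) and 2 of 34 mitosis promoters (5.88%), against 3.91% of the promoters of tested genes, 8296 of 10483 of which matched, and 2.32% of all 27025 promoters in the table. A CCAAT match stood in 26 mitosis (76.5%) and 17 replication promoters (58.6%), against 38.4% for tested genes and 37.9% of all promoters. At least 2 CCAAT matches stood in 17 mitosis promoters, 50%, against 14.9% for tested genes and 12.2% of all promoters. These matches describe letters and are not binding sites. The promoters of Mcm6 (chr1:128359656-128359955, minus strand, 3 E2F matches, of which 2 overlap, in capitals) and Top2a (chr11:99024140-99024439, minus strand, 6 CCAAT matches in capitals) are shown 5′ to 3′ because both genes carry repeated matches and are the examples of their lists above.
Mcm6: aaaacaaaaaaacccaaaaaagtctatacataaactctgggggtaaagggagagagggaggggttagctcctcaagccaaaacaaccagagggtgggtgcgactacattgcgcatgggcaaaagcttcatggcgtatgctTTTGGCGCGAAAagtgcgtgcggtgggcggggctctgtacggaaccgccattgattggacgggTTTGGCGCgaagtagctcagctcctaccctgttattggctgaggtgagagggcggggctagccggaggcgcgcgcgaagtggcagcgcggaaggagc
Top2a: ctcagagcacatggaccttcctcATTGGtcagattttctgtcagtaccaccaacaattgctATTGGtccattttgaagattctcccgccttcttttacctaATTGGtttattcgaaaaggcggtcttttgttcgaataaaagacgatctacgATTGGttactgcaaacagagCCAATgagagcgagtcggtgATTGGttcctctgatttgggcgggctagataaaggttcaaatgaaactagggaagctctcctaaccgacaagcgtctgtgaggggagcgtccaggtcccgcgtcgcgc

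Genes of projection neurons mostly rose, while the factors that choose their fate moved little. Of 16 upper-layer genes 13 rose and 2 fell (median 1.58), and of 17 deep-layer genes 10 rose and 3 fell (median 0.59). Without P0 JB6 replicate 3 only 1 upper-layer gene fell. The difference between the lists was not tested. Cux2, a homeobox gene of upper layers, had 21.1, 26.2 and 35.3 CPM at E13.5 and 118, 148 and 187 CPM at P0, with no overlap (log2 difference 2.51 ± 0.09, edgeR adjusted p = 2.40e-14). The transcription factor Mef2c went from a median of 33.8 to 538 CPM (4.07 ± 0.10) and the exchange factor Rasgrf2 from 0.817 to 145 CPM (7.36 ± 0.20). In the deep-layer list Tbr1, of corticothalamic neurons, had 145, 199.7 and 256 CPM at E13.5 and 156, 163 and 193 CPM at P0, with overlapping ranges (log2 difference -0.24 ± 0.08, edgeR adjusted p = 0.0111). Fezf2, which directs subcerebral fate, fell by 0.42 and Bcl11b, its downstream factor, rose by 0.37 on the log2 scale. Genes of the maturing deep-layer neuron rose far more: the neurotensin receptor Ntsr1 went from a median of 9.74 to 171 CPM (4.37 ± 0.20) and the thyroid hormone-binding protein Crym from 14.1 to 258 CPM (4.39 ± 0.15).

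Of 8 tested Cajal-Retzius and subplate genes, the earliest cortical neurons, 4 rose and 4 fell, and the list is too small to tell this from the 41.1% and 40.3% of all genes. Reln, the secreted guide of migrating neurons, rose from a median of 195 to 522 CPM (1.27 ± 0.09) and the subplate factor Nr4a2 from 4.54 to 19.6 CPM (1.79 ± 0.19), while the receptor Lpar1 fell from 122 to 33.8 CPM (-1.98 ± 0.10). GABAergic interneuron genes, whose cells come from the ventral forebrain, rose for 13 of 16 and fell for 3 (median 2.45). Lhx6, the factor of interneurons from the medial ganglionic eminence, had 4.02, 11.6 and 16.9 CPM at E13.5 and 125, 164 and 183 CPM at P0, with no overlap (log2 difference 3.80 ± 0.23, edgeR adjusted p = 1.48e-09). Npy, a peptide of mature interneurons, went from a median of 3.11 to 218 CPM (6.10 ± 0.20). Gad1, the enzyme that makes GABA, had 6.89, 13.2 and 31.3 CPM at E13.5 and 118, 137 and 232 CPM at P0, and its highest library was P0 JB6 replicate 3 (log2 difference 3.18 ± 0.32, edgeR adjusted p = 1.43e-06). Sox6 fell, by 1.77 on the log2 scale, and this factor is also expressed by cortical progenitors.

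Glial genes mostly rose. Of 23 astrocyte genes 19 rose and 3 fell (median 2.18), and of 11 oligodendrocyte lineage genes 10 rose and 1 fell (median 2.51). Gfap, the intermediate filament of astrocytes, had 0.209, 0.527 and 0.990 CPM at E13.5 and 108, 127 and 156 CPM at P0 (log2 difference 7.71 ± 0.16, edgeR adjusted p = 5.73e-17). Every P0 library lay above every E13.5 library. The GABA transporter Slc6a11 went from a median of 5.89 to 368 CPM (5.59 ± 0.28), the folate enzyme Aldh1l1 from 2.61 to 54.3 CPM (4.11 ± 0.25) and the water channel Aqp4 from 3.46 to 36.6 CPM (3.83 ± 0.23). The falling astrocyte genes included the growth factor receptor Fgfr3 (-2.05 ± 0.09) and the gap junction gene Gja1 (-1.06 ± 0.08), both of which radial glia express. Olig1, a factor of the oligodendrocyte lineage, had 0, 0.666 and 3.74 CPM at E13.5 and 235, 269.6 and 336 CPM at P0 (log2 difference 7.73 ± 0.28, edgeR adjusted p = 3.16e-12). Its partner Olig2 rose by 4.12, Sox10, which drives myelin genes, by 6.503 and the precursor receptor Pdgfra by 2.51 on the log2 scale.

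**Figure D2:**
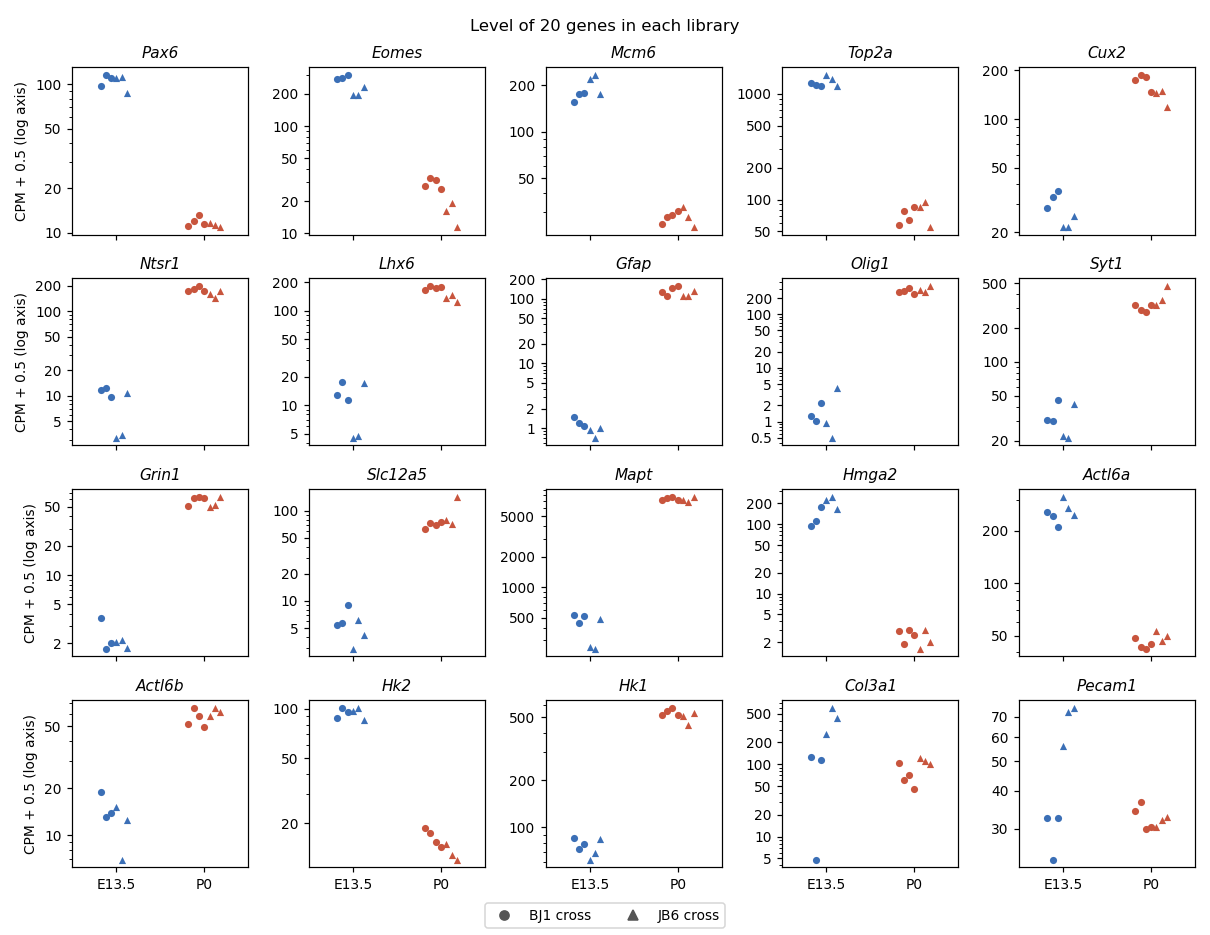
Level (CPM plus 0.5, log axis) of 20 genes in each of the 6 E13.5 (blue) and 7 P0 (red) libraries, with circles for the BJ1 and triangles for the JB6 cross. The stages are separated for all genes but Col3a1 and Pecam1, where the E13.5 libraries overlap the P0 libraries.

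Synaptic genes rose together. Of 25 genes of the presynaptic release machinery 24 rose, each at least 2-fold, and 1 fell (median 2.87). All 25 tested glutamate receptor and postsynaptic genes rose at least 2-fold (median 2.83). Syt1, the calcium sensor of vesicle release, had 20.7, 29.4 and 45.3 CPM at E13.5 and 278, 322 and 474 CPM at P0, with no overlap (log2 difference 3.41 ± 0.20, edgeR adjusted p = 1.03e-09). Snap25, a subunit of the fusion complex, went from a median of 52.5 to 252 CPM (2.34 ± 0.18). The presynaptic gene that fell was Slc17a6, the vesicular glutamate transporter of immature cortical neurons, from 84.6 to 29.5 CPM (-1.32 ± 0.12), while Slc17a7, its counterpart of mature cortical neurons, rose from 99.7 to 284 CPM (1.54 ± 0.18). Grin1, the obligatory subunit of NMDA receptors, had 1.26, 1.54 and 3.17 CPM at E13.5 and 49.3, 60.8 and 63.2 CPM at P0 (log2 difference 5.02 ± 0.16, edgeR adjusted p = 5.10e-15). The scaffold Dlg4 rose from 118 to 515 CPM (2.06 ± 0.09) and the kinase Camk2a from 21.1 to 127 CPM (2.83 ± 0.17).

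Of 13 genes of GABA receptors and chloride transporters 12 rose and 1 fell. Gabra5, a subunit of the GABA-A receptor, rose by 5.01 on the log2 scale. Slc12a5, the chloride exporter that makes GABA inhibitory in mature neurons, had 2.46, 5.09 and 8.49 CPM at E13.5 and 62.9, 72.8 and 143 CPM at P0, and its highest library was P0 JB6 replicate 3 (log2 difference 3.99 ± 0.26, edgeR adjusted p = 2.80e-09). The chloride importer Slc12a2 had 83.9, 105 and 119 CPM at E13.5 and 83.0, 88.3 and 105 CPM at P0, with overlapping ranges (log2 difference -0.19 ± 0.08, edgeR adjusted p = 0.0387). The call of Slc12a2 was lost without E13.5 BJ1 replicate 3, E13.5 JB6 replicate 2, P0 BJ1 replicates 1, 2 or 3 or P0 JB6 replicates 1, 2 or 3, with adjusted p up to 0.102. Of 26 voltage-gated channel genes 25 rose and none fell. Among them the sodium channel Scn2a1 went from a median of 8.51 to 152 CPM (4.07 ± 0.14).

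Axon and cytoskeleton genes mostly rose. Of 26 axon growth and guidance genes 18 rose and 7 fell. The growth cone protein gene Gap43 rose by 2.38 and the adhesion molecule Ncam1 by 2.74 on the log2 scale, and the netrin receptor Dcc fell by 1.23 and the ephrin receptor Epha3 by 1.42. Of 16 cytoskeletal genes 14 rose and 1 fell. Mapt, which encodes the axonal microtubule protein tau, had 247, 464 and 535 CPM at E13.5 and 6965, 7274 and 7776 CPM at P0 (log2 difference 4.16 ± 0.17, edgeR adjusted p = 4.34e-12). Its lowest E13.5 libraries were JB6 replicates 1 and 2. The tubulin gene that fell was Tuba1b, from 794 to 320.1 CPM (-1.37 ± 0.10).

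Several regulators of progenitors fell while their neuronal counterparts rose. The chromatin protein Hmga2, which keeps fetal stem cells young, had 94.2, 169 and 248 CPM at E13.5 and 1.11, 2.04 and 2.50 CPM at P0, with no overlap (log2 difference -6.38 ± 0.24, edgeR adjusted p = 1.32e-12). The RNA-binding proteins Igf2bp1 and Igf2bp2 fell by 2.76 and 3.07, and of the 10 fetal timing factors 7 fell and 0 rose. Lin28b, which blocks let-7 microRNAs, had 5.94, 7.75 and 12.3 CPM at E13.5 and 4.22, 6.42 and 9.08 CPM at P0, with overlapping ranges (log2 difference -0.32 ± 0.21, edgeR adjusted p = 0.18). In the BAF chromatin remodeller the progenitor subunit Actl6a had 210.4, 249.999 and 312 CPM at E13.5 and 41.5, 46.1 and 52.8 CPM at P0. Its neuronal counterpart Actl6b had 6.47, 13.003 and 18.4 CPM at E13.5 and 48.8, 57.9 and 65.3 CPM at P0. Both pairs of groups were apart, in opposite directions (log2 differences -2.45 ± 0.07 and 2.16 ± 0.16). The neuronal subunit Dpf1 rose by 1.74 and the progenitor subunit Ss18 fell by 1.54. Of 13 BAF subunits 8 rose and 4 fell, and of 18 splicing regulators 9 rose and 5 fell. The splicing repressor Ptbp1 fell by 2.22, its neuronal counterpart Ptbp2 also fell, by 1.30, and Rbfox3, known as the neuronal marker NeuN, rose by 1.60.

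Of 15 DNA methylation and imprint maintenance genes 10 fell and 3 rose. Uhrf1, which brings the maintenance methyltransferase to replicating DNA, went from a median of 285 to 25.2 CPM (-3.48 ± 0.09), and is itself on the replication list, while that methyltransferase, Dnmt1, fell by 0.81. Dnmt3b fell by 1.27, and Dnmt3a, the other de novo enzyme, had 222, 236 and 249.7 CPM at E13.5 and 204, 254 and 389 CPM at P0, with overlapping ranges (log2 difference 0.16 ± 0.10, edgeR adjusted p = 0.165). Zfp57, the zinc finger protein that protects imprints, rose from 159 to 439 CPM (1.42 ± 0.08).

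The hexokinases moved in opposite directions. Of 18 glycolysis and glucose or lactate transport genes 12 fell and 5 rose. Hexokinase 2 (Hk2) had 84.9, 95.9 and 101 CPM at E13.5 and 11.5, 14.4 and 18.0 CPM at P0. Hexokinase 1 (Hk1) had 62.1, 75.5 and 85.7 CPM at E13.5 and 448, 521 and 576 CPM at P0, with no overlap for either (log2 differences -2.71 ± 0.09 and 2.79 ± 0.08). The platelet isoform of phosphofructokinase, Pfkp, rose by 3.81 and the neuronal enolase Eno2 by 2.66, while pyruvate kinase (Pkm2) fell by 1.62 and lactate dehydrogenase Ldha by 1.02. Cholesterol synthesis moved little in size: 10 of 16 genes rose and 4 fell, but only 1 in each direction moved at least 2-fold. Of 16 genes of the glucocorticoid and thyroid hormone response 11 rose and 2 fell. Dio2, the enzyme that makes active thyroid hormone, went from a median of 2.61 to 61.4 CPM (4.48 ± 0.16), and the thyroid hormone target Klf9 from 1.71 to 22.5 CPM (3.74 ± 0.20). The glucocorticoid targets differed among themselves: the kinase Sgk1 rose by 2.94, and Fkbp5 had 57.4, 59.6 and 63.6 CPM at E13.5 and 54.7, 62.9 and 72.8 CPM at P0, with overlapping ranges (log2 difference 0.08 ± 0.07, edgeR adjusted p = 0.286). Of 7 immediate early genes 4 rose and 1 fell.

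Markers of other cells in the tissue also moved with stage. Microglial genes rose for 8 of 10 and fell for 0, with the receptor Csf1r at 7.74, 15.2 and 22.3 CPM at E13.5 and 31.8, 34.5 and 41.3 CPM at P0 (log2 difference 1.19 ± 0.15, edgeR adjusted p = 5.87e-07). Without P0 JB6 replicate 3 the count was 6. All 4 tested red blood cell features fell, and their summed level was 1369.7 to 9853 CPM at E13.5 and 90.1 to 194 CPM at P0. The cortical hem and choroid plexus list summed to 43.9 to 616 CPM at E13.5 and 48.8 to 116 CPM at P0, with the secreted Wnt enhancer Rspo1 at 5.76, 55.5 and 89.3 CPM at E13.5 and 0.856, 2.27 and 4.77 CPM at P0 (log2 difference -4.25 ± 0.55, edgeR adjusted p = 1.58e-05). Endothelial and pericyte genes summed to 148 to 511 CPM at E13.5 and 334 to 467 CPM at P0, and meningeal genes to 61.9 to 1256 CPM at E13.5 and 361 to 1015 CPM at P0, ranges that overlapped. Of 14 endothelial and pericyte genes 8 rose and 2 fell, and of 12 meningeal genes 3 rose and 2 fell. The count of rising endothelial and pericyte genes was 5 without E13.5 BJ1 replicate 3, E13.5 JB6 replicate 1 or P0 BJ1 replicate 1 or 3, and that of falling ones 1 without P0 JB6 replicate 1 or 2. Without E13.5 BJ1 replicate 2 the count of falling meningeal genes was 4. The genes of striatum, thalamus, midbrain and hindbrain summed to 91.4 to 115 CPM at E13.5 and 86.5 to 228 CPM at P0, with the striatal dopamine receptor Drd1a at 1.04, 3.84 and 6.30 CPM at E13.5 and 10.4, 18.4 and 34.9 CPM at P0 and the thalamic factor Tcf7l2 at 7.13, 12.1 and 15.0 CPM at E13.5 and 1.77, 4.09 and 6.40 CPM at P0. The highest P0 value of Drd1a, 34.9 CPM, was in P0 JB6 replicate 3. At P0 the striatum, thalamus, midbrain and hindbrain genes summed to 86.5 to 117 CPM in BJ1 and 104 to 228 CPM in JB6. The part that other cells of the tissue have in the stage differences of other genes was not tested.

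The counts of imprinted genes that moved in level were close to those of all tested genes. Of 33 genes that are maternally expressed in mouse tissues 15 rose and 15 fell, and of 29 that are paternally expressed 14 rose and 9 fell. The non-coding RNA Meg3 had 70.6, 105 and 176 CPM at E13.5 and 2409, 2698 and 3516 CPM at P0, with no overlap (log2 difference 4.53 ± 0.21, edgeR adjusted p = 8.34e-11). The growth inhibitor Cdkn1c fell from 65.4 to 27.0 CPM (-1.31 ± 0.13). Among paternally expressed genes Plagl1, a zinc finger factor that arrests the cell cycle, had 711, 875 and 996 CPM at E13.5 and 74.5, 117 and 129 CPM at P0 (log2 difference -3.03 ± 0.10, edgeR adjusted p = 1.28e-14), and Mest fell by 2.50, while the splicing protein gene Snrpn rose by 1.496 and the non-coding RNA Peg13 by 1.802. The predominant allele of Meg3 and Plagl1 was the same at both stages. The maternal share of Meg3 was 97.1% to 100% at E13.5 and 98.3% to 99.8% at P0, and that of Plagl1 0.189% to 5.11% and 0% to 2.65%.

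The maternal share changed for few genes, in contrast to the level. Of 9564 genes averaging 20 or more read bases at each stage, 14 passed an edgeR test of the maternal to paternal ratio averaged over the crosses (0.146%), 8 toward the mother and 6 toward the father at P0. An unadjusted p under 0.05 was reached by 600. In 12 of the 14 the mean share moved the same way in BJ1 and in JB6, as a change by parent of origin requires, and 7 passed in each cross by itself: Grb10, Igf2, Rian, Ube3a, Eif2c2, Trappc9 and Wars. Of the 56 imprinted genes tested 8 were called, 5 of 30 maternally and 3 of 26 paternally expressed. The 6 E13.5 and 7 P0 libraries did not overlap in share for 11 genes (0.115%), of which 6 were called. Grb10, Igf2, Rian, Eif2c2, Trappc9 and Inpp5f were called under every alternative processing and with any 1 library left out.

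**Figure D3:**
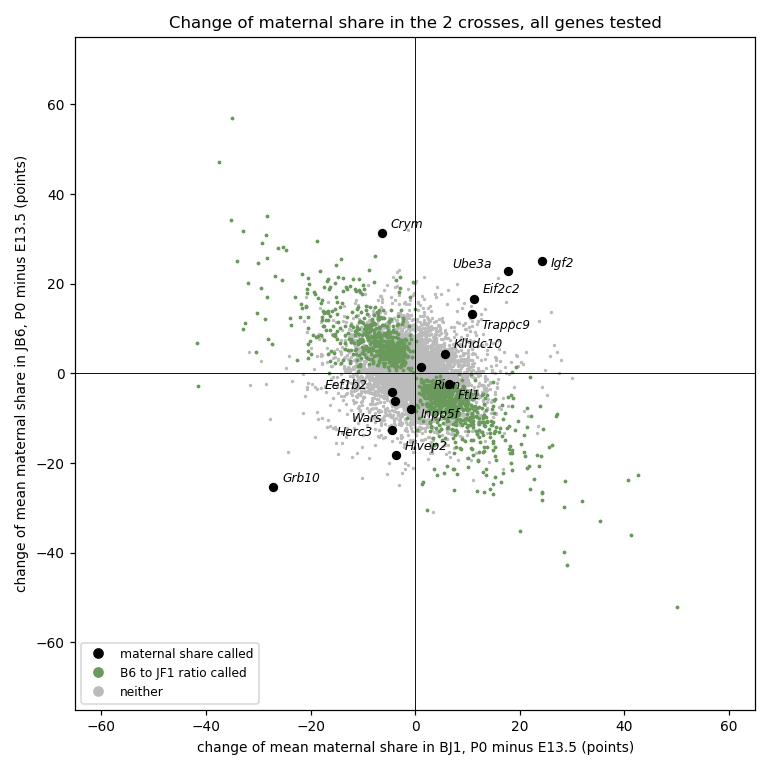
Change of the mean maternal share from E13.5 to P0, in percentage points, in the BJ1 cross (horizontal axis) and the JB6 cross (vertical axis), 1 point per gene tested. Genes called for a change of maternal share are black and named, and genes called for a change of the B6 to JF1 ratio are green and lie along the falling diagonal. Igf2, Ube3a, Eif2c2 and Trappc9 lie in the upper right quadrant and Grb10 in the lower left, away from that diagonal.

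Grb10, an adaptor that restrains growth factor receptors, fell in level and became less restricted to 1 allele. It is known to be read from the maternal allele in most tissues and from the paternal allele, through other promoters, in neurons. Its maternal share was 99.7, 99.9 and 99.3% in the E13.5 BJ1 libraries and 99.5, 99.7 and 99.4% in E13.5 JB6. At P0 it was 73.2, 73.9, 71.9 and 71.0% in BJ1 and 76.2, 82.0 and 64.6% in JB6. All P0 libraries lay below all E13.5 libraries, and the crosses overlapped at both stages (log2 difference of the maternal to paternal ratio -6.41 ± 0.32, edgeR adjusted p = 5.95e-06). The maternal allele had 520.4, 710.2 and 901 CPM at E13.5 and 36.1, 52.2 and 64.2 CPM at P0 (-3.76 ± 0.08, edgeR adjusted p = 4.55e-18). Over all genes the maternal allele was called for 77.1% and the paternal allele for 76.9%. The paternal allele moved the other way, with 0.540, 3.46 and 5.04 CPM at E13.5 and 14.1, 16.1 and 31.0 CPM at P0 (2.62 ± 0.27, edgeR adjusted p = 9.19e-08). The lower maternal share at P0 therefore came with a fall of the maternal allele and a rise of the paternal allele. The read bases are summed over the whole gene and do not tell promoters apart. RefSeq annotates 2 promoters, whose starts lie 9449 bases apart in GRCm38.p6, at chr11:12037371-12037670 with 45 CpG in 300 bases and at chr11:12027922-12028221 with 9 CpG, both on the minus strand. CpG, where imprints are written as methylation, is in capitals on the strand of the gene. Which of them was used in these libraries was not tested.
Grb10 upstream promoter: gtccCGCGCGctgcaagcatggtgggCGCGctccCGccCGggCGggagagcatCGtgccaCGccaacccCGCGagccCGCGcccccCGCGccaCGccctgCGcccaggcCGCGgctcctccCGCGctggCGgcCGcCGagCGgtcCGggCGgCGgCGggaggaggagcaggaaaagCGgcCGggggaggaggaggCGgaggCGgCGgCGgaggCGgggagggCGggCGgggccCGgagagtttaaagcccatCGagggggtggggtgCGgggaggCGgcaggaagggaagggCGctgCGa
Grb10 downstream promoter: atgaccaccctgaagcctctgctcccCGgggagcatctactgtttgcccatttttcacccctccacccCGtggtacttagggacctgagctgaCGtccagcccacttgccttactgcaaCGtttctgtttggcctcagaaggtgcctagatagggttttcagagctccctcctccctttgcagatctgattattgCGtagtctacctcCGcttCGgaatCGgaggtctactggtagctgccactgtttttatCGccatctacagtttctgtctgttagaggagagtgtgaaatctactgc

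**Figure D4:**
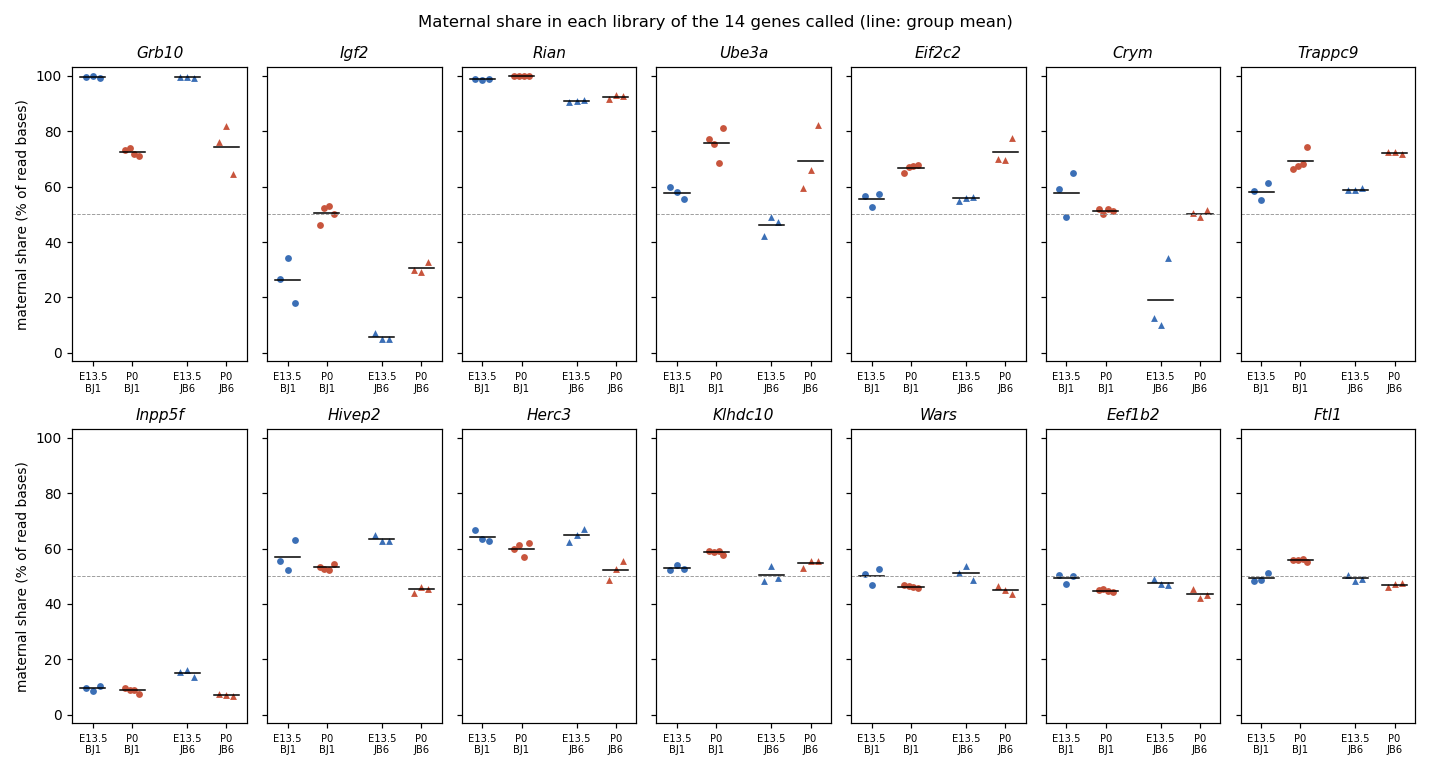
Maternal share (percent of read bases) in each library for the 14 genes whose share was called, by stage and cross, with the group mean as a line and 50% dashed. Blue is E13.5 and red is P0. Grb10 falls from above 99% to between 64.6% and 82%, while Igf2, Ube3a, Eif2c2 and Trappc9 rise in both crosses.

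Igf2, the paternally read fetal growth factor, had a larger maternal share at P0. In BJ1 the maternal share was 26.8, 34.1 and 17.8% at E13.5 and 46.1, 52.3, 53.2 and 50.2% at P0, and in JB6 7.03, 4.99 and 4.92% and 30.0, 29.3 and 32.7%. The 34.1% of E13.5 BJ1 replicate 2 rested on 14 maternal and 27 paternal read bases. Within each cross the stages did not overlap, but the crosses lay apart at each stage, with JB6 lower (log2 difference of the maternal to paternal ratio 2.33 ± 0.12, edgeR adjusted p = 1.76e-19). The maternal allele had 2.52, 7.81 and 13.46 CPM at E13.5 and 27.9, 44.4 and 72.8 CPM at P0 (2.56 ± 0.28, edgeR adjusted p = 1.15e-06), and the paternal allele 4.86, 68.1 and 155 CPM at E13.5 and 27.7, 85.3 and 103.4 CPM at P0, with overlapping ranges (0.19 ± 0.43, edgeR adjusted p = 0.709). Igf2 in brain is made mainly by meninges, choroid plexus and vessels, and its level varied among E13.5 libraries with markers of the tissue around the cortex. It was 7.38 CPM in E13.5 BJ1 replicate 2, where Col3a1 was 4.32 CPM, and 163 CPM in E13.5 JB6 replicate 2, where Col3a1 was 607 CPM. The same order held for H19, the maternal RNA of the same domain, with 30.3 and 373 CPM. Without Igf2 itself, the other 11 tested genes of the meningeal list summed to 54.6 to 325 CPM in E13.5 BJ1, 631 to 1093 in E13.5 JB6, 305 to 674 in P0 BJ1 and 802 to 867 in P0 JB6, and its part in the change of share was not tested. H19 was read almost wholly from the maternal allele at both stages, with a maternal share of 96.6% to 99.9% at E13.5 and 98.7% to 100% at P0.

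Eif2c2 (Ago2), the slicer of RNA interference, and Trappc9, a trafficking protein gene, are neighbours on chromosome 15 around the paternally read RNA Peg13. Both became more maternal, by different movements of the alleles. The maternal share of Eif2c2 was 56.7, 52.7 and 57.3% in E13.5 BJ1, 55.0, 55.8 and 56.4% in E13.5 JB6, 64.9, 67.2, 67.4 and 67.7% in P0 BJ1 and 70.1, 69.5 and 77.6% in P0 JB6. The stages did not overlap (log2 difference of the maternal to paternal ratio 0.89 ± 0.09, edgeR adjusted p = 3.82e-09). Its maternal allele did not pass the test (0.15 ± 0.11, edgeR adjusted p = 0.231), and its paternal allele fell, from a median of 46.7 to 31.6 CPM (-0.72 ± 0.11, edgeR adjusted p = 4.63e-06). For Trappc9 the share was 58.3, 55.0 and 61.4% and 58.6, 58.8 and 59.4% at E13.5, and 66.4, 67.5, 68.1 and 74.3% and 72.5, 72.4 and 71.7% at P0, in BJ1 and JB6, again with no overlap (log2 difference of the maternal to paternal ratio 0.76 ± 0.10, edgeR adjusted p = 1.07e-06). Here the maternal allele rose, from a median of 39.1 to 81.9 CPM (0.96 ± 0.08, edgeR adjusted p = 7.04e-10), and the paternal allele did not pass (0.21 ± 0.10, edgeR adjusted p = 0.074). Peg13 stayed at or under 0.868% maternal in every library while its level rose. Chrac1, a further neighbour, had group means of 51.0% ± 2.83 (SD, n = 3) and 56.1% ± 1.64 (n = 3) at E13.5 and 55.5% ± 1.41 (n = 4) and 64.6% ± 3.84 (n = 3) at P0, and did not pass (log2 difference of the ratio 0.38, edgeR adjusted p = 0.677).

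Ube3a, a ubiquitin ligase that neurons read from the maternal allele because an antisense transcript silences the paternal one, had a maternal share of 60.0, 58.0 and 55.6% in E13.5 BJ1 and 42.2, 49.2 and 47.4% in E13.5 JB6. At P0 it was 77.3, 75.5, 68.4 and 81.1% in BJ1 and 59.5, 65.9 and 82.1% in JB6. The stages were apart within each cross, and the lowest P0 value, in JB6 replicate 1, lay within the E13.5 range of BJ1 (log2 difference of the maternal to paternal ratio 1.30 ± 0.22, edgeR adjusted p = 5.85e-04). Both alleles fell, the paternal one more: the maternal allele had 7.81, 15.3 and 16.6 CPM at E13.5 and 5.08, 8.84 and 9.76 CPM at P0 (-0.87 ± 0.16, edgeR adjusted p = 4.03e-05) and the paternal allele 10.7, 11.6 and 18.0 CPM at E13.5 and 1.71, 2.64 and 4.08 CPM at P0 (-2.15 ± 0.20, edgeR adjusted p = 4.18e-09). A mean of 141 read bases per library at E13.5 and 52.6 at P0 stood behind these shares. The call was lost without both libraries that stand apart, with all counts divided by 3 and with limma, with adjusted p up to 0.146 over all alternatives.

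**Figure D5:**
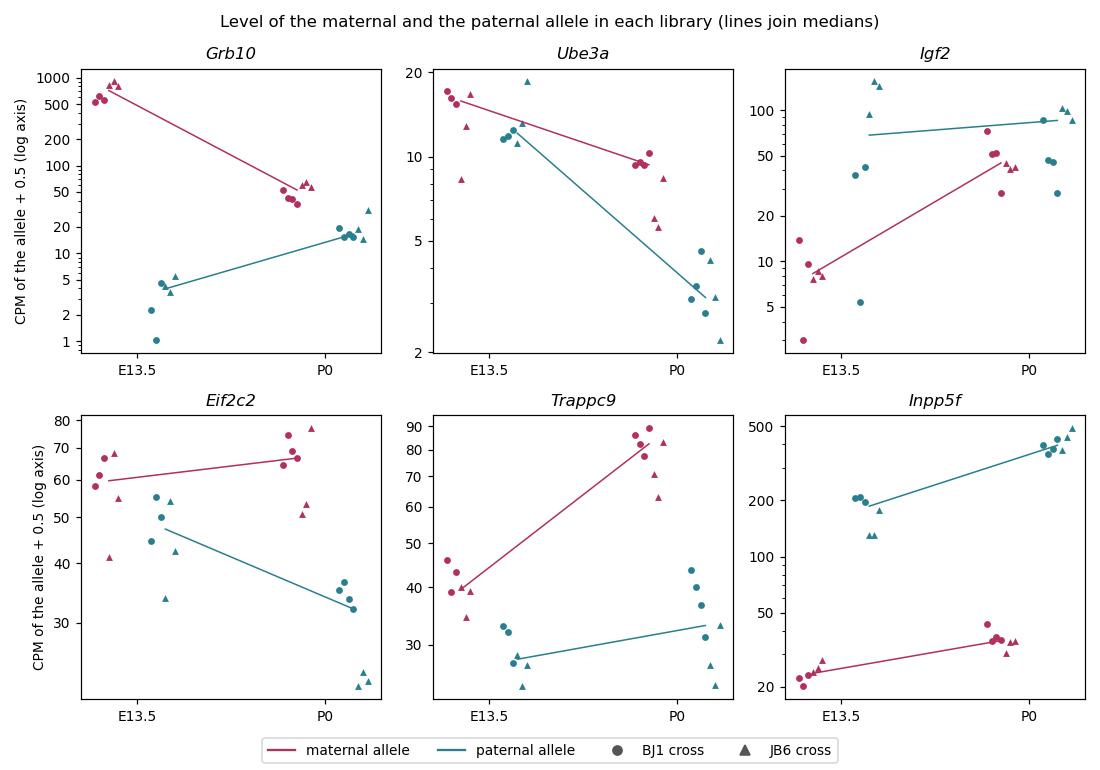
Level of the maternal (red) and paternal (blue-green) allele of 6 genes in each library (CPM plus 0.5, log axis), with lines joining the medians of E13.5 and P0, circles for BJ1 and triangles for JB6. The alleles of Grb10 move in opposite directions, both alleles of Ube3a and Inpp5f move the same way, and for Eif2c2 and Trappc9 the change lies mostly in 1 allele.

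Rian, a maternally read RNA of the Meg3 domain, became more maternal by small steps near the upper end of the scale. In BJ1 its share was 98.8, 98.5 and 98.7% at E13.5 and 99.8, 99.9, 99.9 and 99.9% at P0, and in JB6 90.6, 91.1 and 91.3% and 91.5, 93.1 and 92.6% (log2 difference of the maternal to paternal ratio 1.77 ± 0.14, edgeR adjusted p = 3.85e-13). The ratio changed far more in BJ1 (3.28 ± 0.26, edgeR adjusted p = 3.82e-13) than in JB6 (0.26 ± 0.08, edgeR adjusted p = 0.0341), and the test of that difference passed (strain term 1.51 ± 0.14, edgeR adjusted p = 5.08e-12). The BJ1 change rested on few paternal read bases, 20, 22 and 22 at E13.5 and 14, 6, 5 and 7 at P0. Inpp5f, a phosphatase gene with a paternally read brain transcript, became more paternal in JB6, from 15.3, 16.04 and 13.47% to 7.40, 7.25 and 6.64%, whereas in BJ1 it was 9.62, 8.62 and 10.4% at E13.5 and 9.79, 9.00, 8.86 and 7.63% at P0. The averaged contrast passed (-0.65 ± 0.08, edgeR adjusted p = 1.79e-07) and so did the test of the difference between the crosses (strain term 0.54 ± 0.08, edgeR adjusted p = 8.57e-07). Both of its alleles rose, the paternal one by 1.23 and the maternal one by 0.61 on the log2 scale.

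The remaining called genes moved by smaller steps. Wars, which encodes a tRNA synthetase, had a mean maternal share of 50.1% ± 2.97 (SD, n = 3) in E13.5 BJ1, 51.2% ± 2.62 (n = 3) in E13.5 JB6, 46.2% ± 0.423 (n = 4) in P0 BJ1 and 45.1% ± 1.42 (n = 3) in P0 JB6. All P0 libraries lay below all E13.5 libraries (-0.28 ± 0.05, edgeR adjusted p = 0.00164). Eef1b2, a translation elongation factor, moved in the same direction, from 49.3% ± 1.67 and 47.6% ± 1.24 to 44.8% ± 0.461 and 43.5% ± 1.60 (-0.25 ± 0.06, edgeR adjusted p = 0.0323). Herc3, the host gene of the imprinted Nap1l5, went from 64.3% ± 2.06 and 64.8% ± 2.23 to 59.9% ± 2.25 and 52.2% ± 3.44 (-0.50 ± 0.10, edgeR adjusted p = 0.0119). Both genes were without overlap between the stages. Klhdc10, near the imprinted Mest, became more maternal, from 53.0% ± 1.01 and 50.4% ± 3.00 to 58.7% ± 0.705 and 54.7% ± 1.40 (0.29 ± 0.06, edgeR adjusted p = 0.0152). Hivep2, a zinc finger factor, became more paternal, mainly in JB6, where its mean share went from 63.3% ± 1.19 to 45.2% ± 1.07 (-0.62 ± 0.12, edgeR adjusted p = 0.00428).

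In Ftl1, the ferritin light chain, and Crym the crosses moved in opposite directions, so neither is a change in both crosses. Ftl1 went from 49.4% ± 1.54 to 55.8% ± 0.450 in BJ1 and from 49.2% ± 1.05 to 46.9% ± 0.778 in JB6 (0.12 ± 0.03, edgeR adjusted p = 0.0323). Crym went from 57.7% ± 8.17 to 51.3% ± 0.921 in BJ1 and from 18.9% ± 13.2 to 50.3% ± 1.35 in JB6 (0.82 ± 0.18, edgeR adjusted p = 0.0369), while its level rose in both. At E13.5 its shares rested on a mean of 68.2 read bases per library. Several of these calls hung on single libraries. They were lost for Crym without E13.5 BJ1 replicates 1 or 2, E13.5 JB6 replicates 1 or 2, P0 BJ1 replicates 1 or 3 or P0 JB6 replicates 1 or 3. For Eef1b2 the libraries were E13.5 BJ1 replicates 1 or 3, E13.5 JB6 replicate 1, P0 BJ1 replicates 1, 3 or 4 or P0 JB6 replicates 2 or 3, and for Ftl1 E13.5 BJ1 replicates 1 or 2, E13.5 JB6 replicates 2 or 3, P0 BJ1 replicates 1, 2 or 3 or P0 JB6 replicates 2 or 3. The call was also lost for Klhdc10 without E13.5 BJ1 replicate 1, E13.5 JB6 replicates 1 or 3 or P0 JB6 replicates 2 or 3, for Herc3 without E13.5 BJ1 replicate 1, E13.5 JB6 replicate 3 or P0 JB6 replicate 1 and for Hivep2 without E13.5 JB6 replicate 3. Crym, Eef1b2 and Klhdc10 also lost their calls with all counts divided by 3, with female libraries alone and with limma, and so did Herc3. DESeq2 ended the calls of Eef1b2, Klhdc10, Herc3 and Ftl1, and Hivep2 was lost with counts divided by 3. Ftl1 was also lost with female libraries alone and with limma, and without both libraries that stand apart Crym, Eef1b2, Ftl1 and Klhdc10 were lost. Wars lost its call only with limma (adjusted p = 0.491). The highest adjusted p with 1 library left out was 0.381 for Crym, 0.174 for Ftl1 and 0.152 for Eef1b2. Just outside the threshold lay the ribosome assembly gene Ltv1, at an adjusted p of 0.0547, with a maternal share of 57.1% to 61.4% at E13.5 and 41.8% to 56.0% at P0.

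Most imprinted genes did not pass the test of the share. Of the 56 tested, 48 were not called. Igf2r, the receptor that clears Igf2, had group means of 61.6% ± 3.76 and 57.2% ± 1.34 at E13.5 and 61.1% ± 2.00 and 57.1% ± 1.73 at P0 (log2 difference of the ratio -0.01 ± 0.13, edgeR adjusted p = 0.999). Nnat, a small membrane protein gene, was at or under 7.87% maternal in every library and Cdkn1c at or above 95.4%. Among genes that missed the threshold, the adhesion gene Adam23 had 33.3, 23.0 and 32.7% and 43.9, 32.7 and 31.7% at E13.5 in BJ1 and JB6, and 43.6, 37.8, 38.0 and 40.8% and 46.9, 40.8 and 42.0% at P0 (0.58 ± 0.15, edgeR adjusted p = 0.106). Blcap, the host gene of Nnat, differed between stages in BJ1, from 77.7% ± 1.27 to 70.3% ± 1.06 (-0.56 ± 0.12, edgeR adjusted p = 0.00103), and was 77.8% ± 2.20 and 76.9% ± 1.70 in JB6 (-0.08 ± 0.12, edgeR adjusted p = 0.815). The strain term, which tests that difference, missed the threshold (adjusted p = 0.0595). A p that misses the threshold does not show that a share stayed the same.

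Within single crosses far more genes changed: 675 in BJ1 (7.06%) and 586 in JB6 (6.13%). The ratio of the B6 to the JF1 allele, the half-difference of the crosses, changed for 1272 genes (13.3%), 667 toward B6 and 605 toward JF1. Pttg1, which encodes securin, went from 12.3% and 85.1% maternal at E13.5 (BJ1 and JB6) to 47.6% and 52.1% at P0, so that a strong excess of JF1 reads became near equality. Pcdh15, a protocadherin gene, went from 10.1% and 82.0% maternal at E13.5 (BJ1 and JB6) to 51.5% and 46.0% at P0, the same pattern. Kbtbd11, a Kelch-domain gene, moved toward JF1, from 92.9% and 10.46% maternal at E13.5 (BJ1 and JB6) to 63.8% and 39.5% at P0. With all counts divided by 3 the count was 178 in BJ1, 139 in JB6 and 469 by strain. By strain DESeq2 gave 607 and limma 740. The part of the lower B6 share of all read bases at P0 in the strain changes was not tested.

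The change in level differed between the crosses for 149 genes (1.42%). Fabp7 was 402 to 528 CPM at E13.5 and 252 to 324 CPM at P0 in BJ1, and 272 to 374 CPM and 393 to 501 CPM in JB6 (difference of the log2 changes, JB6 minus BJ1, 1.03 ± 0.19, edgeR adjusted p = 0.0212). The endothelial adhesion gene Pecam1 was 23.2 to 32.1 CPM at E13.5 and 29.5 to 36.1 CPM at P0 in BJ1, and 55.8 to 74.6 CPM and 30.0 to 32.2 CPM in JB6 (-1.27 ± 0.20, edgeR adjusted p = 0.00736). The immediate early gene Egr1 was 0.540 to 1.89 CPM at E13.5 and 27.7 to 34.7 CPM at P0 in BJ1, and 2.01 to 7.10 CPM and 10.4 to 15.2 CPM in JB6 (-2.99 ± 0.58, edgeR adjusted p = 0.024). The endothelial and pericyte list summed to 148 to 246 CPM in E13.5 BJ1 and 302 to 511 in E13.5 JB6, and to 377 to 467 in P0 BJ1 and 334 to 369 in P0 JB6, and its part in these differences was not tested. The count was the least stable of all: it lay between 23 without E13.5 JB6 replicate 2 and 402 without E13.5 JB6 replicate 3, and it was 50 without both libraries that stand apart.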

How the data were processed

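RNA was extracted with Trizol and made into stranded mRNA libraries, per the labels' protocols. Per the submitters' processing notes the build was mm9 and the tools were edgeR, HTSeq, SAMtools mpileup 0.1.18, Novoalign and CASAVA 1.8.2, with no role stated. The authors deposited, per stage, a table of counts: sense read bases at strain differences for each gene and allele, per the file headers, in tables they named as being without contamination. A read that covers several differences adds several read bases, so precision is lower than the counts imply, and libraries held 5568220 to 7815580. A gene with an antisense partner or a near-identical copy may hold reads of it.

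For level, both alleles were summed and autosomal genes in both tables with a mean of at least 20 were tested with edgeR 4.0.16 (R 4.3.3; TMM, robust quasi-likelihood test, cross and stage as terms, 13 libraries, Benjamini-Hochberg adjustment, called at an adjusted p of 0.05). For share, each library gave a maternal and a paternal column, with library terms and a maternal effect per stage and cross; the stage contrast averaged over crosses was the main test and the difference between crosses the strain test. Interaction and single-allele fits used the same filter. Library values were compared with exact permutation tests (Python 3.11.15 with numpy 2.4.6). The fits were tested on simulated data. Named genes are the anchors of each list, the strongest up to 3 per direction and list with at least 2-fold difference and no overlap, the strongest outside the lists, all genes called for share and the listed imprinted genes. The members and lists were chosen with earlier results of these data known. Alternatives were DESeq2 1.42.0, limma 3.58.1, other scalings, filters and fits, counts divided by 3, female libraries, a replicate block and each library left out. Figures were drawn with matplotlib 3.10.9. Some genes are not reported here. X-linked genes are not analysed here, and the other libraries entered only 1 alternative fit, of all 25 hybrid libraries.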

Additional observations from a re-analysis of the deposited data

Results flagged for a closer look

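A library was singled out where its gap to the nearest library of its stage, divided by the whole range of the stage, passed Dixon's 95% limit. Of 292 groups of values, of the named genes and of library measures such as the total of read bases, 34 passed (11.6%). The limit passes about 1 in 20 groups of independent, normally distributed values. Values of different genes in 1 library are not independent, so the flags are not separate departures. P0 JB6 replicate 3 accounted for 20 of them. It was the highest P0 library in level for Slc1a3 (604 CPM against a median of 453, gap ratio 0.672), Gad1 (232 CPM against a median of 137, gap ratio 0.766), Aldh1l1 (79.6 CPM against a median of 54.3, gap ratio 0.650), Aqp4 (84.9 CPM against a median of 36.6, gap ratio 0.682), Slc6a11 (556 CPM against a median of 368, gap ratio 0.759), Syt1 (474 CPM against a median of 322, gap ratio 0.613), Slc17a7 (465 CPM against a median of 284, gap ratio 0.772), Camk2a (218 CPM against a median of 127, gap ratio 0.784), Slc12a5 (143 CPM against a median of 72.8, gap ratio 0.805), Dnmt3a (389 CPM against a median of 254, gap ratio 0.650), Eno2 (159.5 CPM against a median of 105, gap ratio 0.626), Meg3 (3516 CPM against a median of 2698, gap ratio 0.607), Snrpn (231 CPM against a median of 163, gap ratio 0.794), Nrgn (378 CPM against a median of 177, gap ratio 0.837), Gda (484 CPM against a median of 217, gap ratio 0.733), Slc6a7 (119 CPM against a median of 46.5, gap ratio 0.800) and Cpne7 (85.4 CPM against a median of 32.2, gap ratio 0.733). It was the lowest for Igf2bp1 (15.2 CPM against a median of 27.5, gap ratio 0.622) and Dct (0.856 CPM against a median of 5.44, gap ratio 0.701). Its maternal share of Eif2c2 (77.6% maternal against a median of 67.7, gap ratio 0.591) was the highest at P0.

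Other libraries were singled out for fewer genes. E13.5 BJ1 replicate 1 was the highest of its stage in level for Grin1 (3.17 CPM against a median of 1.54, gap ratio 0.785) and Dct (173 CPM against a median of 123, gap ratio 0.634). E13.5 BJ1 replicate 1 was the lowest of its stage in maternal share for H19 (96.6% maternal against a median of 99.6, gap ratio 0.859). E13.5 BJ1 replicate 3 was the highest of its stage in level for Aldh1l1 (7.36 CPM against a median of 2.61, gap ratio 0.790). E13.5 JB6 replicate 1 was the highest of its stage in level for Cdc6 (100.5 CPM against a median of 79.7, gap ratio 0.747), Tuba1b (1252 CPM against a median of 794, gap ratio 0.777) and Pkm2 (1947 CPM against a median of 1577, gap ratio 0.693). E13.5 JB6 replicate 1 was the highest of its stage in maternal share for Snrpn (2.12% maternal against a median of 0.455, gap ratio 0.725). E13.5 JB6 replicate 2 was the highest of its stage in level for Egr1 (7.10 CPM against a median of 1.95, gap ratio 0.760) and Cpne7 (0.209 CPM against a median of 0, gap ratio 1.00). E13.5 JB6 replicate 3 was the highest of its stage in level for Olig2 (7.64 CPM against a median of 1.73, gap ratio 0.702). E13.5 JB6 replicate 3 was the lowest of its stage in level for Esco2 (146 CPM against a median of 171, gap ratio 0.907). P0 JB6 replicate 1 was the lowest of its stage in maternal share for Meg3 (98.3% maternal against a median of 99.7, gap ratio 0.727) and Cdkn1c (95.4% maternal against a median of 98.9, gap ratio 0.597).

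The change in level between the stages differed between the crosses, by edgeR's test of the interaction, for 6 named genes. The difference of the log2 changes, JB6 minus BJ1, was positive for Fabp7 (1.03, adjusted p = 0.0212), Pfkp (0.77, adjusted p = 0.0411) and Drd1a (2.08, adjusted p = 0.0358), and negative for Ptbp1 (-0.56, adjusted p = 0.0327), Egr1 (-2.99, adjusted p = 0.024) and Pecam1 (-1.27, adjusted p = 0.00736). The change in maternal share differed between the crosses, by the strain term, for 6. That term, the halved difference of the log2 ratio changes (BJ1 minus JB6), was positive for Rian (1.51, adjusted p = 5.08e-12), Inpp5f (0.54, adjusted p = 8.57e-07), Hivep2 (0.42, adjusted p = 0.0122) and Ftl1 (0.25, adjusted p = 1.96e-10), and negative for Igf2 (-0.62, adjusted p = 5.93e-04) and Crym (-1.09, adjusted p = 1.58e-05).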

How the results depend on the processing

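The counts of rising and falling genes, also those past 2-fold, stayed within 1.5 times of the reported counts under every alternative run, with rising counts of 4207 to 4296 and falling counts of 4157 to 4249 with 1 library left out, and none of the 116 genes named for level or the 26 named for share that were called changed sign. Leaving out both libraries that stand apart, an alternative chosen after seeing the data, gave 50 genes whose level change differed between crosses and 9 with a changed maternal share. With all counts divided by 3, which treats a read as 3 read bases, these were 93 and 8, with 178 within BJ1, 139 within JB6, 469 by strain, 7 the same way in both crosses and 4 in each cross by itself. Female libraries alone gave 25 and 9. DESeq2 gave 366 level changes that differed between crosses and 607 strain changes. The limma fit of log2 ratios gave 9 changed shares, 302 within BJ1, 176 within JB6, 740 by strain, 7 the same way in both crosses and 4 in each cross by itself. With no filter on low counts 26 shares changed, 21 the same way. With 1 library left out the ranges were 23 to 402 for level changes that differed between crosses, 9 (without E13.5 BJ1 replicate 1) to 17 (without E13.5 BJ1 replicate 3) for changed shares, 491 to 690 within BJ1, 379 to 606 within JB6, 1073 to 1208 by strain, 9 to 14 the same way and 5 to 8 in each cross by itself. The causes were not tested. Replicate numbers were not used as pairs in the main fit. Deviations of same-numbered libraries correlated by -0.0867 to 0.166, and 4 of 6 correlated best with their own number. Whether same-numbered libraries shared their handling was not tested. With the replicate number as a block 4210 genes rose, 4136 fell and 13 shares changed. Among named genes this fit lost the calls of Tbr1 and Pecam1 for level and of Eef1b2 for share. Genes with few read bases limit the shares most: a mean of 20 read bases at strain differences may come from far fewer reads.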

Other observations

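Outside the gene lists, the largest rises among genes averaging 100 or more read bases and no overlap of the stages were found for genes that were close to 0 at E13.5. Gda, a guanine deaminase of forebrain neurons, had 0, 0.429 and 1.32 CPM at E13.5 and 159.9, 217 and 484 CPM at P0. Nrgn, the calmodulin-binding protein neurogranin of dendritic spines, had 0.360, 1.04 and 2.38 CPM at E13.5 and 156, 177 and 378 CPM at P0. The proline transporter Slc6a7 had 0, 0 and 0.360 CPM at E13.5 and 35.8, 46.5 and 119 CPM at P0 and the copine Cpne7 0, 0 and 0.209 CPM at E13.5 and 21.6, 32.2 and 85.4 CPM at P0. In all 4 the highest P0 library was P0 JB6 replicate 3. The uncharacterised gene 6330403A02Rik had 0, 1.92 and 3.09 CPM at E13.5 and 464, 563 and 720.3 CPM at P0. The desmocollin Dsc3, a junction protein known from epithelia, had 0, 0 and 0.377 CPM at E13.5 and 30.9, 40.8 and 63.6 CPM at P0, with no overlap (log2 difference 8.15 ± 0.36, edgeR adjusted p = 9.22e-13).

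Among the genes that fell most outside the lists was Dct, an enzyme of pigment synthesis, with 99.3, 123 and 173 CPM at E13.5 and 0.856, 5.44 and 6.43 CPM at P0 (log2 difference -4.75 ± 0.20, edgeR adjusted p = 6.66e-12). It was followed by genes of cell division: Esco2, which joins sister chromatids, went from a median of 171 to 6.76 CPM (-4.63 ± 0.10), Cep55, of the last step of cell separation, from 183 to 7.49 CPM (-4.62 ± 0.10), and the spindle kinesin Kif15 from 211 to 8.62 CPM (-4.60 ± 0.11).

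The tables did not list the same autosomal features: 14485 stood in both, 367 only at E13.5 and 1009 only at P0, and the features in a single table entered only an alternative fit. The embryonic globin Hba-x stood only at E13.5, with 133, 494 and 960 read bases (lowest, median and highest library). At P0 alone stood the relaxin receptor Rxfp1, with 24, 35 and 65 read bases, and angiotensinogen (Agt), with 13, 32 and 70.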
